A study of Mus musculus with 18 samples.

Results

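The clustered protocadherin genes were taken as the protein-coding genes of mouse chromosome 18 whose symbols begin with Pcdha, Pcdhb or Pcdhg, which gave 57 of 21631 protein-coding genes on the autosomes and chromosome X. The genes form 3 clusters in a row on mm10, the name used in the submitters' processing notes for the GRCm38 assembly of the gene table. The alpha cluster (Pcdha1 to Pcdha12, Pcdhac1 and Pcdhac2, 14 genes) runs from 36930285 to 37188897. The beta cluster (Pcdhb1 to Pcdhb22, 22 genes) runs from 37264998 to 37521419, and the gamma cluster (12 gamma A genes, 6 gamma B genes, Pcdhgc3, Pcdhgc4 and Pcdhgc5, 21 genes) runs from 37661775 to 37841873. A further symbol that matches, Pcdhgb8, is not protein-coding in the gene table and was left out.

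Clustered protocadherins are cadherin-family adhesion molecules of the neuronal surface. In the alpha and gamma clusters each gene has its own promoter and its own large first exon, called the variable exon, which is spliced to constant exons shared by the whole cluster, so that the genes end at the same place. The beta genes have no shared exons. Neurons switch on a small, largely random choice of the variable exons, which gives each cell a surface identity. The C-type genes (Pcdhac1, Pcdhac2 and Pcdhgc3 to Pcdhgc5) are the exception and are expressed more broadly in neurons. CTCF and cohesin loop the chosen promoters to distal enhancers, and DNA methylation is known to keep the others silent.

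Chromatin immunoprecipitation and sequencing was carried out on E14, a line of mouse embryonic stem cells, kept in 2i/LIF medium (inhibitors of MEK and GSK3 with the cytokine LIF) whose arginine and lysine were of the light, medium or heavy isotope form. Untreated cells gave 2 libraries for each of 5 marks, H3K27me1, H3K27me2, H3K27me3, H3K36me2 and H3K36me3, with no spike-in. H3K27 methylation is the work of the Polycomb complex PRC2, H3K36me3 is laid down over transcribed gene bodies, and H3K36me2 by enzymes of the NSD family. A quantitative series gave 2 libraries each of H3K27me3 and H3K36me2 from cells given 10 µM EPZ-6438, an inhibitor of the PRC2 enzyme EZH2, for 7 days, and 2 each from cells given the solvent DMSO. Drosophila S2 chromatin was added there as a spike-in. The labels do not say whether the 2 libraries of a group came from separate cultures, so errors and p-values cover the spread between these libraries, which may be technical.

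Estimated mouse reads per library ranged from 16.3 M to 84.4 M, except for H3K27me3 after the inhibitor, with 0.749 M and 1.34 M. Levels below are reads per 1 kb window divided by the mean of all windows in the same library, so that the genome mean is 1. The level of a gene start is the mean over the windows within 2 kb of it, and 17331 protein-coding gene starts were measured in this way. The remaining protein-coding genes had no strand given and were left out, while the members were taken as forward. Of 14 flanking genes listed, 0 had a measured start, so these neighbours are not in the shares of all starts given below. Over the gene body, all 8 pluripotency genes listed had H3K36me3 between 4.69 and 8.06, and it was above 1 in 5 of 6 neural (highest 4.98, at Tubb3), 2 of 4 endoderm and 3 of 4 fibroblast genes. H3K27me3 over the body was above 1 in 1 of the 8 pluripotency genes (2.37, at Esrrb), 5 of 6 neural, 4 of 4 endoderm and 4 of 4 fibroblast genes. In bulk chromatin, a mark at a moderate level in every cell and a high level in some cells cannot be told apart.

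In untreated cells, most protocadherin starts were rich in H3K27me3 and poor in the other 4 marks when read within 2 kb. The median over the 57 starts was 4.16 and 4.43 in the 2 H3K27me3 libraries, and the median of the gene means was 4.36, against 0.540 over all 17331 starts. The mark lay above the genome mean at 54 of the 57 starts (39.3% of all starts), and 12 of the 57 stood in the top decile of all starts. Median levels of the other marks were 0.462 for H3K27me1 (0.993 over all starts), 0.592 for H3K27me2 (1.01), 0.713 for H3K36me2 (1.42) and 0.756 for H3K36me3 (1.17). Over the first 2.5 kb of the genes, the member medians of H3K36me2 and H3K36me3 lay above the genome mean. The 3 starts below the genome mean in H3K27me3 were Pcdhga1, Pcdhgc3 and Pcdhgc5, all in the gamma cluster. These levels describe 2 libraries a mark, and no test was made on them.

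**Figure D1:**
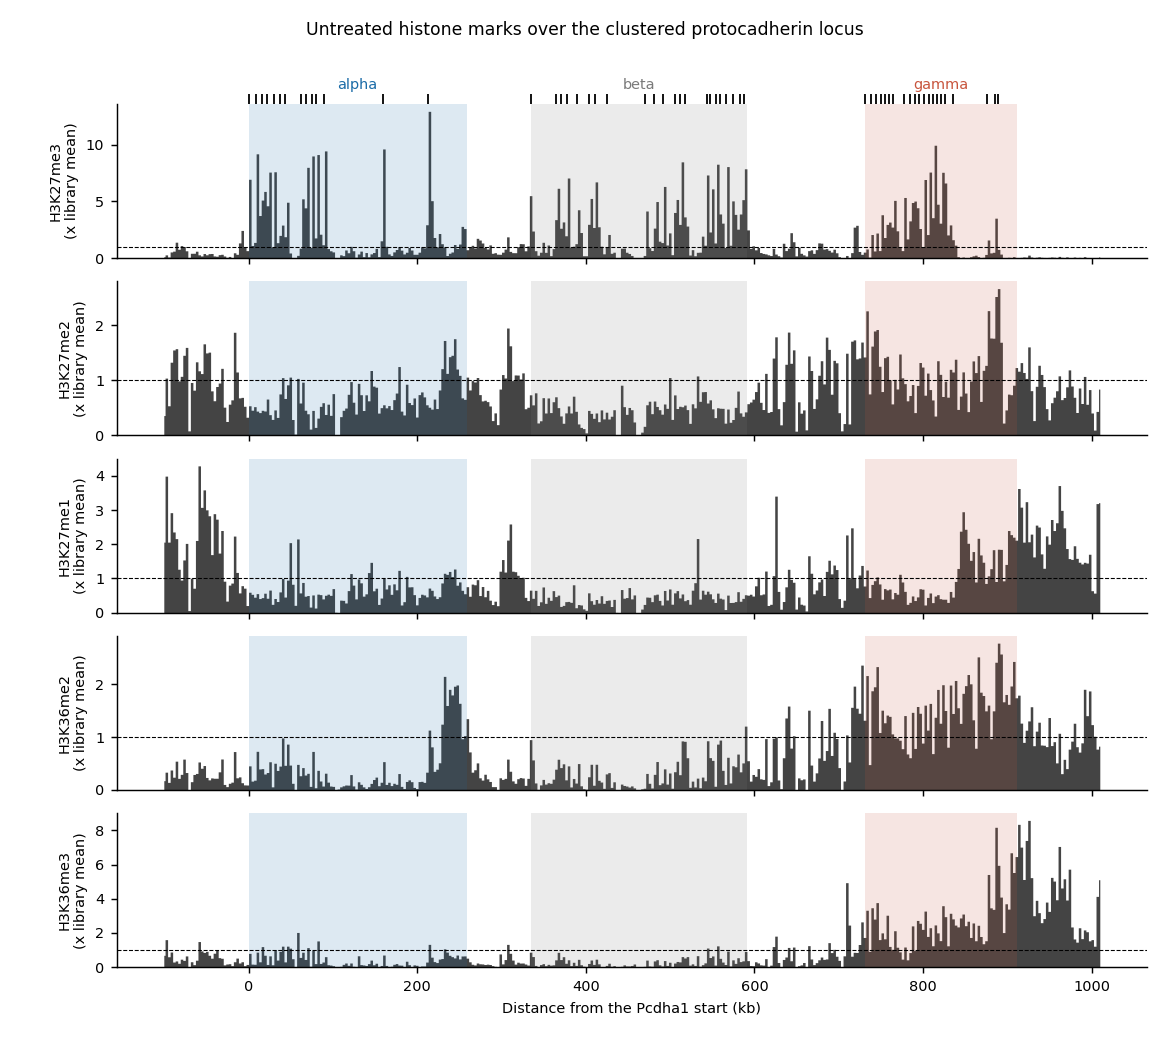
Level of 5 marks (times the library mean, vertical axes, mean of 2 untreated libraries in 3 kb steps) against distance from the Pcdha1 start in kb, with the 3 clusters shaded, gene starts as ticks above, and the genome mean of 1 dashed. H3K27me3 stands in narrow peaks along all 3 clusters, while H3K36me2 and H3K36me3 are high along the gamma cluster and low along the beta cluster.

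Averaged over the whole clusters, H3K27me3 was nearly the same in the 3, at 2.19 ± 0.20 (SD, n = 2) for alpha, 2.39 ± 0.24 for beta and 2.12 ± 0.15 for gamma. The median over the same windows was lower, at 0.908, 1.13 and 0.888. In the start windows alone, mean H3K27me3 was not the same, at 5.36 in alpha, 4.42 in beta and 3.16 in gamma. H3K36me3 differed between the clusters. It was 0.431 ± 0.0067 over alpha, 0.282 ± 0.0011 over beta and 2.64 ± 0.015 over gamma. H3K36me2 followed the same order, at 0.422 ± 0.044, 0.287 ± 0.037 and 1.53 ± 0.14. Both libraries of each mark placed gamma above the other clusters, by more than the spread between libraries. Of 180 windows in the gamma cluster, 0 were empty in all 18 libraries, against 7 of 259 in alpha and 7 of 256 in beta, and no window at a member start was empty.

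The mean H3K27me3 profile was highest inside the genes, downstream of the starts. At the start itself the mean level was 3.44 in Pcdha1 to Pcdha12, 3.66 in beta and 10.5 in Pcdhac1 and Pcdhac2. Around the starts of Pcdha1 to Pcdha12 the mean level was highest 1.5 kb downstream, at 11.3, and fell to 1.59 at 5 kb downstream. The beta genes had their highest mean 2 kb downstream (8.84), and the gamma A and gamma B genes 1.5 kb downstream (5.78 and 8.37). The first 2.5 kb of the genes, about the length of a variable exon, accordingly had a higher median over the 57 members (7.09) than the windows within 1 kb of the start (2.80). Outside the start windows the level was 1.35 in alpha, 1.36 in beta and 1.25 in gamma, a mean over stretches of unlike level. Within the runs of closely spaced starts it was higher, at 3.09 from Pcdha1 to Pcdha12 and 3.07 from Pcdhga1 to Pcdhga12. The long stretch from Pcdha12 to Pcdhac1 outside the start windows had 0.462 ± 0.14 (SD, n = 2), and that from Pcdhga12 to Pcdhgc3 had 0.138 ± 0.00052. H3K36me3 had its highest mean at like distances in most classes. It lay 1.5 kb downstream for Pcdha1 to Pcdha12 (1.74) and the beta genes (0.911) and 2 kb downstream for gamma A (4.00). The gamma B genes had theirs 3.5 kb upstream (3.83), a place inside the first part of the gamma A gene before each. Downstream of the gamma B starts, H3K36me3 reached 2.88 at 2.5 kb. Other marks rose across the beta starts as well. From 1 kb upstream to 1.5 kb downstream, H3K36me2 went from 0.121 to 0.962 and H3K27me1 from 0.297 to 0.613, against 1.07 to 8.69 for H3K27me3. Around Pcdha1 to Pcdha12, H3K27me1 and H3K27me2 were highest 3.5 kb upstream. Whether part of the shape is one of read coverage common to the marks was not tested, as no input library was used.

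**Figure D2:**
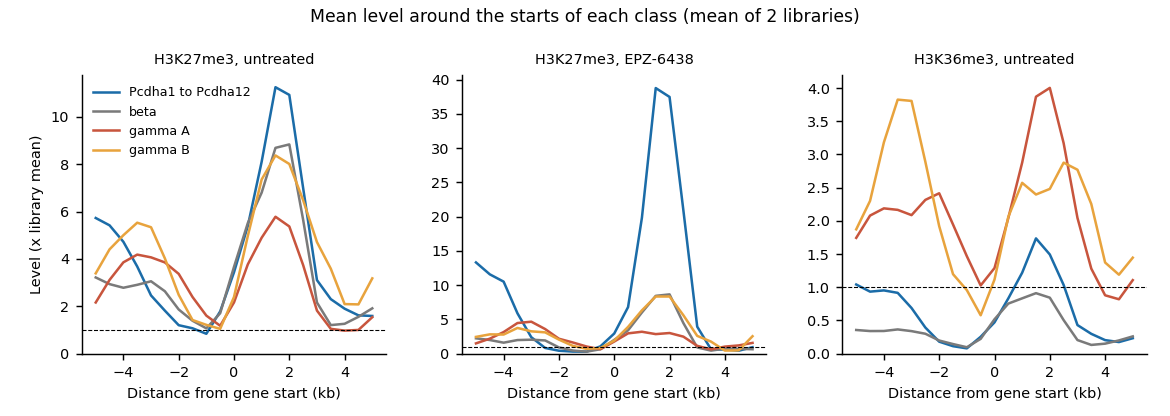
Mean level (times the library mean, vertical axes, mean of 2 libraries) against distance from the gene start in kb for 4 classes of protocadherin genes, for untreated H3K27me3, H3K27me3 after EPZ-6438 and untreated H3K36me3. H3K27me3 is highest 1.5 to 2 kb inside the genes in every class when untreated, and after the inhibitor the alpha genes alone among these classes reach 38.8.

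Among the alpha alternate genes, all 12 starts were above the genome mean in H3K27me3 and none in H3K36me2. Pcdha4 had 6.77 and 6.87 and Pcdha9 had 6.37 and 7.12, the highest of the 12. Pcdha8 had 2.39 and 1.73 and Pcdha6 had 3.14 and 2.74, the lowest. Pcdha6 was also the alpha start with the highest H3K36me3 (1.44 and 1.32). Pcdha4, Pcdha9, Pcdha8 and Pcdha6 were picked as the extremes of these same values, so the gap between high and low follows in part from the choice. The largest H3K27me3 peak of the locus in the authors' list ran from 36929001 to 36970500, a length of 41.5 kb, and took in the starts of Pcdha1 to Pcdha6. It ranked 1355th of 43094 peaks by the authors' score.

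The C-type genes divided by cluster. Pcdhac2 had the highest H3K27me3 of all 57 starts, at 11.0 and 10.9, and Pcdhac1 had the next highest mean, with 7.08 and 8.25. At the gamma end, Pcdhgc3 had 0.765 and 0.703, Pcdhgc5 had 0.726 and 0.797, and Pcdhgc4 lay between the groups with 2.57 and 2.203. For H3K36me3 the gamma genes stood above the alpha pair. Pcdhgc5 had 5.72 and 6.75, Pcdhgc4 had 5.23 and 5.14 and Pcdhgc3 had 2.57 and 2.73, against 0.660 and 0.431 at Pcdhac1 and 0.855 and 1.46 at Pcdhac2. The mean of Pcdhgc3 to Pcdhgc5 divided by that of Pcdhac1 and Pcdhac2 was 0.139 ± 0.015 (SD, n = 2) for H3K27me3 and 5.54 ± 0.57 for H3K36me3. Pcdhgc5 was the start with the most H3K27me1 (2.05 and 1.58), H3K27me2 (3.22 and 2.42), H3K36me2 (2.91 and 2.63) and H3K36me3 of the 57.

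All 22 beta starts were above the genome mean in H3K27me3, and 0 of them in H3K36me3. The highest were Pcdhb13, with 7.20 and 7.08, and Pcdhb12, with 6.29 and 5.60, which are neighbours. The lowest were Pcdhb8, with 1.63 and 1.31, and Pcdhb9, with 1.96 and 2.02, which are also neighbours. Pcdhb8 was low in the other marks as well, with 0.171 and 0.172 in H3K36me3, and Pcdhb9 had 0.127 and 0.211 in H3K36me2. How reads that match several of these closely similar genes were placed is not given in the sources used here, so the levels of single members are uncertain to that extent.

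In the gamma A and gamma B genes, H3K27me3 and H3K36 methylation were both often above the genome mean. Of the 12 gamma A starts, 11 were above the genome mean in H3K27me3, 11 in H3K36me2 and 11 in H3K36me3, and of the 6 gamma B starts the counts were 6, 4 and 5, against 39.3%, 66.5% and 57.6% of all starts. The gamma B count for H3K36me2 was near the share of all starts. The 2 lowest H3K27me3 levels of each class lay toward the upstream end, with 0.627 and 0.844 at Pcdhga1, 1.31 and 1.24 at Pcdhga3, 2.06 and 1.87 at Pcdhgb1 and 2.08 and 2.91 at Pcdhgb2. The 2 highest of each class lay further along, with 4.94 and 6.05 at Pcdhgb6, 5.53 and 5.60 at Pcdhga10, 4.20 and 5.13 at Pcdhgb7 and 6.45 and 6.96 at Pcdhga11. The order was not even: among the later genes, Pcdhga8 had 1.90 and 2.27, Pcdhga12 had 1.61 and 2.04 and Pcdhga6 had 2.39 and 2.84. Pcdhga11 was high in both marks, with H3K36me3 of 3.47 and 3.10. Over all starts of a cluster, the gamma to beta ratio was 4.67 ± 0.0043 for H3K36me3, 2.70 ± 0.64 for H3K36me2 and 0.702 ± 0.012 for H3K27me3.

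**Figure D3:**
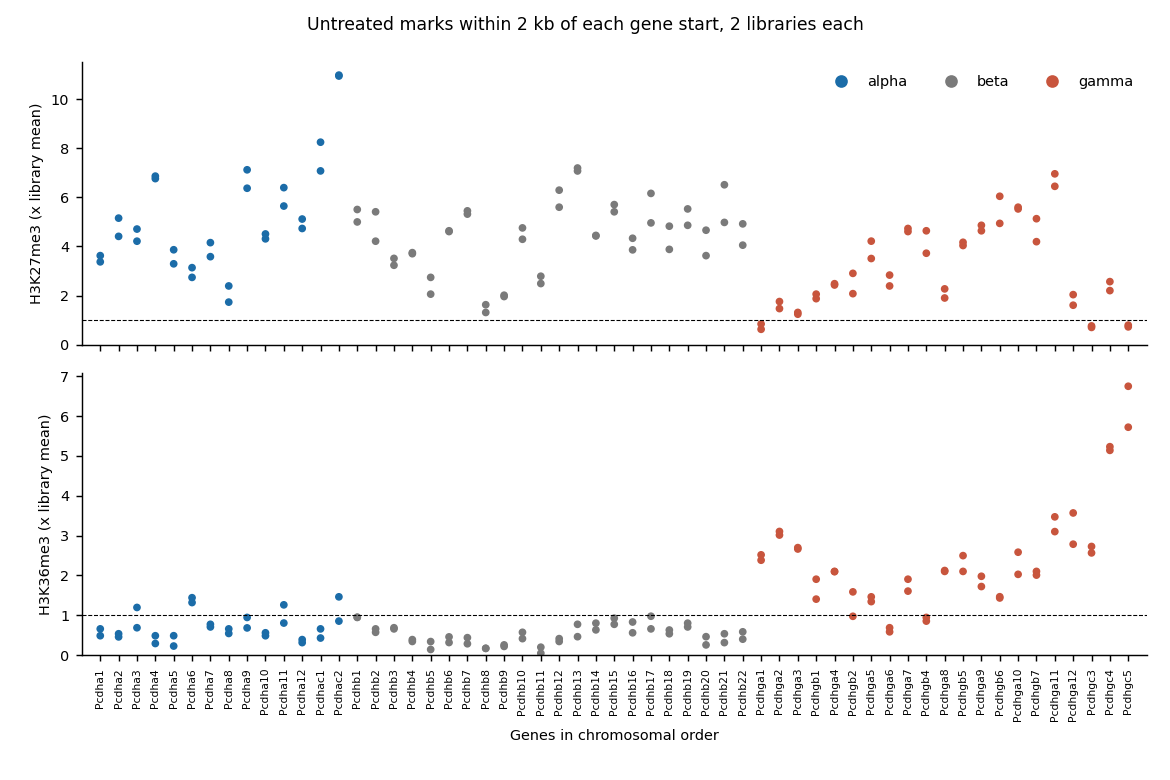
Level of H3K27me3 (upper panel) and H3K36me3 (lower panel) within 2 kb of each of the 57 starts, in chromosomal order, as times the library mean, with a point for each of the 2 untreated libraries and the genome mean of 1 dashed. H3K27me3 is highest at Pcdhac2 (11.0 and 10.9), and every start above 2 in the mean of H3K36me3 lies in the gamma cluster.

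The parts of the clusters that hold the shared exons also differed. After Pcdhgc5 the gamma cluster had H3K36me3 of 4.51 ± 0.16 (SD, n = 2), H3K27me1 of 1.91 ± 0.88, H3K36me2 of 1.91 ± 0.25 and H3K27me3 of 0.0424 ± 0.0042. After Pcdhac2 the alpha cluster had H3K36me3 of 0.583 ± 0.067 and H3K27me3 of 1.42 ± 0.16, with H3K36me2 of 1.31 ± 0.10. In the authors' lists that alpha stretch held an H3K36me2 peak from 37159001 to 37180500, the single H3K36me2 peak of the alpha cluster, and the gamma end held peaks of H3K36me2 from 37806501 to 37846500 and of H3K27me1 from 37827501 to 37876000. The last of these runs on past the cluster into Diaph1, an actin regulator, whose body had H3K36me3 of 3.99 and 3.80 and H3K27me3 of 0.0801 and 0.0622. Taf7 and Slc25a2, 2 genes for a transcription factor subunit and a mitochondrial carrier in the gap between beta and gamma, had mean H3K36me3 of 2.87 and 3.88 and H3K27me3 of 0.0469 and 0.235. Zmat2, upstream of the alpha cluster, had 6.26 and 0.211. Of the 14 flanking genes listed, 14 had H3K36me3 above the genome mean over the body (median 4.28), and 3 had H3K27me3 above it.

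By the authors' lists of replicated peaks, a single list per mark for both untreated libraries, 45 of the 57 starts lay in an H3K27me3 peak, against 30.5% of all starts. The count was 14 of 14 in alpha, 19 of 22 in beta and 12 of 21 in gamma. The 3 beta starts outside were Pcdhb3, Pcdhb9 and Pcdhb11, and each had a peak opening inside the gene: that of Pcdhb3 ran from 37301001 to 37303500, with the gene starting at 37300799. In gamma, Pcdhga2, Pcdhga3, Pcdhgb1, Pcdhgb2, Pcdhgb5 and Pcdhgb7 were outside but likewise had a peak opening just inside the gene. That of Pcdhgb5 opened at 37731001, with the gene starting at 37730971. Pcdhga1, Pcdhgc3 and Pcdhgc5 had no such peak. All counts here take the start position alone. An H3K36me2 peak held 6 starts, all in gamma, against 50.2% of all starts. Peaks of both marks held Pcdhga11 and Pcdhgc4, 43 starts lay in H3K27me3 peaks alone, 4 in H3K36me2 peaks alone and 8 in neither. An H3K27me2 peak held 6 starts, all among the 21 of gamma (30.5% of all starts), and an H3K27me1 peak held Pcdhgc5 alone (25.7% of all starts).

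Across the 57 starts, which share libraries and in part sequence, the marks fell into groups. Spearman's rho was 0.869 between H3K36me2 and H3K36me3, 0.844 between H3K27me2 and H3K36me2 and 0.787 between H3K27me1 and H3K27me2. For H3K27me3 the relation to H3K36me3 differed by cluster, with rho of 0.526 over 22 beta starts, -0.0154 over 14 alpha starts and -0.405 over 21 gamma starts. In gamma, H3K27me3 went with low H3K27me1 (rho -0.814) and low H3K27me2 (rho -0.753). These values are descriptions across genes, which are not independent replicates.

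The inhibitor lowered H3K27me3 at every protocadherin start. On the authors' spike-in scale the mean over all member start windows was 236 and 182 after DMSO and 0.373 and 0.404 after EPZ-6438, a 535-fold fall on the mean of the log2 values, and the genome mean fell 534-fold. In limma with Benjamini-Hochberg adjustment, 57 of 57 starts were lower, but so were 99.7% of the 16008 starts tested, so this count is not particular to the members. The median change of the members was -7.20 on the log2(value + 1) scale and that of all starts was -4.97, a scale that understates the change of starts with low values. The exact two-sided permutation test on a mean of 2 against 2 libraries cannot give a p below 0.333, the value found for each cluster on this scale.

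The fall was not equally deep in the 3 clusters. Over the start windows, H3K27me3 fell 305-fold in the alpha cluster (316 and 241 after DMSO, 0.834 and 0.978 after the inhibitor), 868-fold in beta (248 and 187, then 0.234 and 0.263) and 813-fold in gamma (171 and 138, then 0.210 and 0.170). The ratio of alpha to beta starts, which needs no scale factor, was 1.27 and 1.29 after DMSO and 3.57 and 3.71 after the inhibitor, a log2 change of 1.51 with SDs between libraries of 0.017 and 0.041. The exact two-sided permutation p was 0.333, the smallest that 2 against 2 libraries can give. The ratio of alpha to gamma starts went from 1.85 and 1.75 to 3.97 and 5.76 (log2 change 1.41, exact permutation p = 0.333), and fell to a log2 change of 0.77 when only windows within 1 kb of the start were used. The ratio of beta to gamma starts was 1.45 and 1.35, then 1.11 and 1.55, and the libraries of the arms overlapped.

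Relative to the library mean, the alpha cluster starts went from 6.48 and 6.75 to 9.15 and 14.6, the beta starts from 5.10 and 5.23 to 2.56 and 3.94, and the gamma starts from 3.51 and 3.86 to 2.31 and 2.54. In the alpha and gamma clusters as in beta, the 2 arms did not overlap. The rise of alpha on this scale depends on the scale and window chosen: the median log2 change of the 12 alpha alternate starts was 0.47, and became -0.51 when each library was divided by the median over all gene starts and -0.44 with windows within 1 kb. The same median for beta was -0.83, -1.75 and -0.996. Beta lay below alpha each time.

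On the log2(level + 0.5) scale, the 3 members with the highest change relative to the library mean were alpha genes from the end of the alternate exons. As a plain ratio of the inhibitor to the DMSO level, Pcdhgc5 in gamma had 2.70, on 6 and 11 reads. That lay below Pcdha11 (3.85) and above Pcdha12 (2.60) and Pcdha9 (2.58). Pcdha11 went from 6.50 and 7.48 to 17.9 and 35.9, resting on 27 and 97 reads. Pcdha9 went from 8.67 and 8.61 to 15.3 and 29.3, and Pcdha12 from 5.95 and 6.04 to 11.9 and 19.3. In Pcdha11, Pcdha9 and Pcdha12, both inhibitor libraries were above both DMSO libraries, as they were at 38.5% of all starts. Their limma changes on the log2(level + 0.5) scale were 1.79 ± 0.43 (SE, adjusted p = 0.0707), 1.24 ± 0.41 (adjusted p = 0.113) and 1.27 ± 0.35 (adjusted p = 0.0838), so none passed the threshold. Pcdha10, which lies among them, went from 5.46 and 5.33 to 5.97 and 18.9, resting on 9 and 51 reads. High levels were also found outside this run. Pcdha4 had 15.9 and 14.1 after the inhibitor, from 8.46 and 8.14. Pcdhac2, the start with the most H3K27me3 before, had 20.6 and 30.4 after the inhibitor, from 13.5 and 13.7. On the spike-in scale these levels were still falls, of 145-fold at Pcdha11, 218-fold at Pcdha9, 213-fold at Pcdha12 and 293-fold at Pcdhac2. Not all alpha genes stood so high: Pcdha5 went from 4.00 and 4.22 to 2.66 and 3.33, on 4 and 9 reads, and fell 743-fold.

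On the log2(level + 0.5) scale, the 3 members with the lowest change relative to the library mean lay in gamma, and each rested on 5 reads or fewer in each inhibitor library. Pcdhga11, among the highest of the gamma starts after DMSO (7.05 and 6.91), had 0 and 1.85 after the inhibitor, from 0 and 5 reads, with a limma change of -2.79 ± 0.81 (adjusted p = 0.0934). Pcdhgb7 went from 5.37 and 4.65 to 0 and 1.11 (change -2.61 ± 0.64, adjusted p = 0.0722). Pcdhgc3 and Pcdhb8 had 0 reads in both inhibitor libraries. Set against a floor of 3 reads in each library, they were at least 543-fold and at least 417-fold lower on the spike-in scale. Pcdhgb6 differed from its gamma neighbours, with 6.64 and 14.1 after the inhibitor against 6.07 and 6.30 after DMSO. Pcdhgc5, low before (1.53 and 1.46), stood at 3.98 and 4.08, and fell 199-fold on the spike-in scale. The median over all gene starts was 0.686 after DMSO and 1.55 after the inhibitor. Stretches of gamma with little of the mark also rose on this scale. The mean went from 0.160 to 1.08 between Pcdhga12 and Pcdhgc3, and from 0.233 to 1.74 after Pcdhgc5. How much of the signal after the inhibitor is background was not tested.

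**Figure D4:**
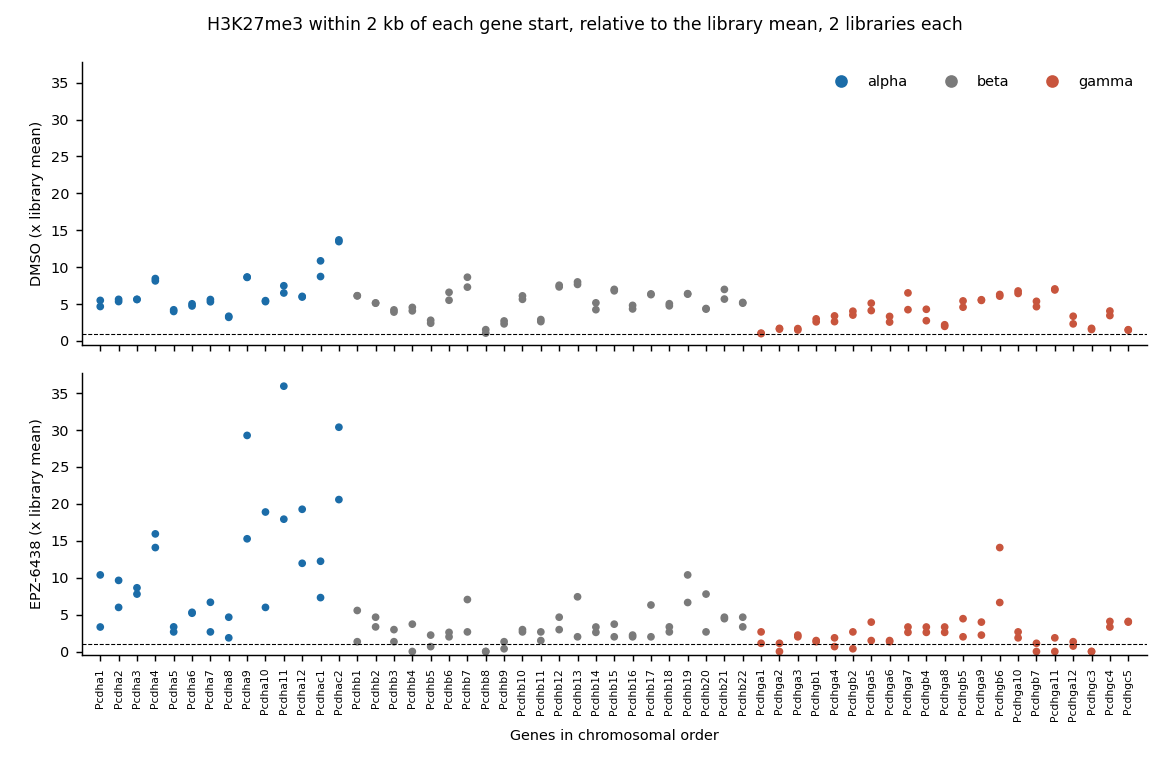
H3K27me3 within 2 kb of each of the 57 starts in chromosomal order, as times the library mean, after DMSO (upper panel) and after 7 days of EPZ-6438 (lower panel), with a point for each of 2 libraries and the genome mean of 1 dashed. After the inhibitor Pcdha9, Pcdha11 and Pcdhac2 reach 29.3, 35.9 and 30.4 in the deeper library, while most beta and gamma starts lie below their DMSO values.

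In the limma fit on the library-mean scale, 0 members and 0% of the 16008 starts were called in either direction. At an unadjusted p under 0.05 there were 19 members and 5847 starts. On simulated data of this depth the same fit called 0 of 197 starts changed 4-fold and 116 of 199 changed 64-fold. Those starts were drawn from all starts with at least 10 reads over 4 libraries, with an assumed spread. The inhibitor libraries held a mean of 0.377 and 0.675 reads per 1 kb window, against 4 to 97 reads in all at each alpha alternate start. The simulation thus shows that the fit can miss changes at typical starts, and does not show what it would miss at the alpha starts. With limma-voom on the recovered reads, 14 members were called: 7 higher (Pcdha4, Pcdha9, Pcdha10, Pcdha11, Pcdha12, Pcdhac2 and Pcdhgc5) and 7 lower (Pcdhb4, Pcdhb8, Pcdhgb2, Pcdhga10, Pcdhgb7, Pcdhga11 and Pcdhgc3). That fit called 32.4% of all starts higher and 7% lower (5181 and 1120), and its median change over all starts was 0.61. With the median over gene starts as scale, limma called 0 members higher and 25 lower, and 949 starts higher and 3341 lower, with a median change of -0.47 over all starts. Both inhibitor libraries were above both DMSO libraries at 15 members, 8 of them alpha alternates (38.5% of all starts), and below at 33 members, 18 of them beta (28.8% of all starts). A minimum DMSO level of 4, chosen after the values were seen, left 3068 starts. Their median ratio of the inhibitor level to the DMSO level was 0.561, and 18.6% had a ratio above 1. Under the same minimum it was 0.604 over 18 beta starts (2 above 1) and 1.46 over 11 alpha alternates (9 above 1). It was 0.550 over 5 gamma A and 0.643 over 3 gamma B starts. The DMSO level sets this minimum and also divides the ratio, which tends to lower the ratio. These values therefore do not test whether a class differs from other starts.

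The order of the starts was partly kept after the inhibitor. Across members, Spearman's rho between H3K27me3 after DMSO and after the inhibitor was 0.829 over the 14 alpha starts, 0.747 over the 22 beta starts and 0.201 over the 21 gamma starts. Reads per start after the inhibitor ranged from 0 to 97. The shape within the genes was kept as well in alpha, where the highest mean level after the inhibitor was 38.8 at 1.5 kb downstream of Pcdha1 to Pcdha12 and 36.02 at 1 kb downstream of Pcdhac1 and Pcdhac2. It was 8.65 in beta at 2 kb and 8.34 in gamma B at 1.5 kb. In gamma A it was 4.66, at 3 kb upstream of the start. For several gamma A genes that place lies inside the first part of the gene before. Pcdhga10 starts at 37747016, for example, and Pcdhgb6 before it at 37742094. Downstream of the starts, the gamma A mean reached 3.19 at 1 kb. Untreated and DMSO levels, from separate experiments, had rho of 0.963 over the 57.

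No protocadherin start passed the threshold for a change of H3K36me2 in fits without a replicate block. With the replicate numbers of the labels as a block, 6 members and 2209 of 16952 starts passed on the library-mean scale. Nothing says that these numbers mark a shared culture. On the spike-in scale the mean over all member start windows was 290 and 202 after DMSO and 309 and 206 after the inhibitor. No member was called by limma, with 0 members at an unadjusted p under 0.05, and 29 of 16952 starts were called in all (0.171%), with 359 at an unadjusted p under 0.05. On the library-mean scale without the block, 0 members and 0% of starts were called, with 10 members and 3656 starts at an unadjusted p under 0.05. On simulated data the limma fit on that scale called 178 of 200 starts changed 4-fold. The ratio of the inhibitor to the DMSO level of the members ran only from 0.425 at Pcdha10 to 1.79 at Pcdhb4. Changes as small as these were not simulated, so how many of them the fit would call is not known. Limma-voom also called 0 starts, with 4077 starts and 10 members at an unadjusted p under 0.05. Both inhibitor libraries were above both DMSO libraries at 4 members (13.3% of all starts) and below at 15 (42.3% of all starts).

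The H3K36me2 of alpha starts relative to beta starts was lower in both inhibitor libraries than in both DMSO libraries. The ratio of alpha to beta starts in H3K36me2 was 0.808 and 0.917 after DMSO and 0.637 and 0.638 after the inhibitor, a log2 change of -0.43 with SDs of 0.13 and 0.0030 (exact two-sided permutation p = 0.333, the smallest possible). The alpha to gamma ratio was 0.380 and 0.462, then 0.322 and 0.393, and the arms overlapped. The beta to gamma ratio was 0.470 and 0.504, then 0.505 and 0.615. The arms did not overlap, but their nearest libraries were almost equal, beside an SD of 0.20 in log2 after the inhibitor. The members with the largest falls relative to the library mean were alpha genes. Pcdha10 went from 0.328 and 0.508 to 0.177 and 0.179, Pcdha7 from 0.882 and 1.08 to 0.566 and 0.643, and Pcdha12 from 0.367 and 0.430 to 0.112 and 0.274. In these 3, picked as the largest falls, both inhibitor libraries lay below both DMSO libraries, as they did at 42.3% of all starts. The limma adjusted p-values were 0.155, 0.154 and 0.168. The largest rises were at beta genes, Pcdhb4 (0.390 and 0.195, then 0.359 and 0.691), Pcdhb17 (0.476 and 0.860, then 0.789 and 1.06) and Pcdhb5 (0.344 and 0.417, then 0.418 and 0.715), with adjusted p of 0.227, 0.275 and 0.274. The arms overlapped at Pcdhb4 and Pcdhb17.

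**Figure D5:**
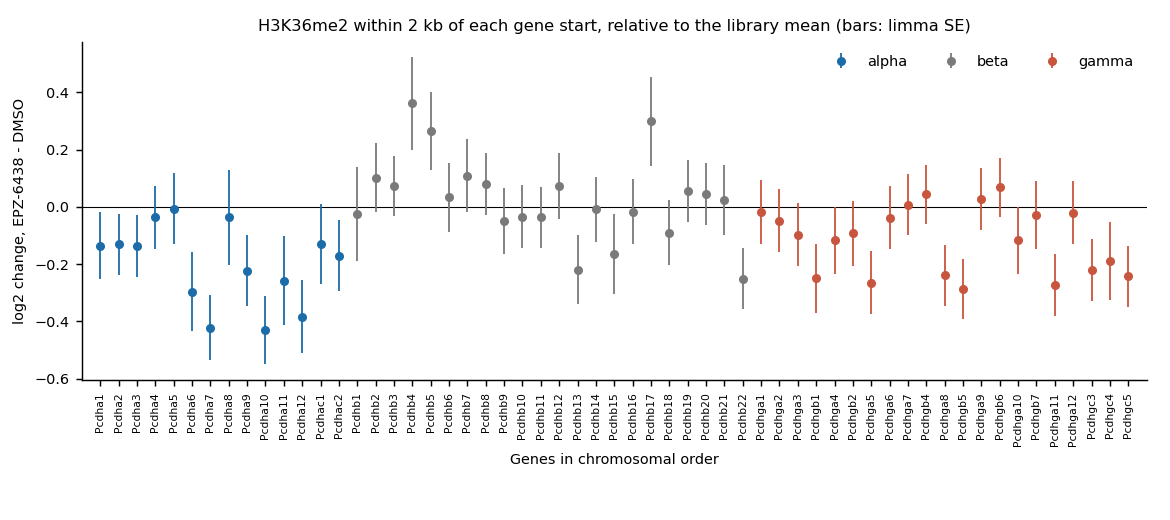
Change of H3K36me2 within 2 kb of each of the 57 starts in chromosomal order, as the log2 difference of EPZ-6438 and DMSO on the scale of log2(level relative to the library mean + 0.5), with bars for the limma SE from 2 against 2 libraries. The lowest points are Pcdha10, Pcdha7 and Pcdha12 and the highest is Pcdhb4, and no change passed the adjusted threshold in this fit, made without a replicate block.

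Over the whole clusters, H3K36me2 relative to the library mean was 0.467 and 0.472 in alpha after DMSO and 0.454 and 0.461 after the inhibitor. It was 0.365 and 0.386, then 0.373 and 0.464, in beta. In gamma it was 1.46 and 1.50, then 1.28 and 1.36, with no overlap between the arms (log2 change -0.16, exact permutation p = 0.333). On the spike-in scale the 2 libraries of an arm differed by more than the arms did.

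Other protocadherin genes, which lie outside the clusters, were also rich in H3K27me3 at their measured starts. Of 12 listed, 9 had a measured start, and all 9 were above the genome mean in H3K27me3 (39.3% of all starts), with a median of 5.23. Over the gene body, 6 of the 12 were above the genome mean, with a median of 1.20. All 9 were lower after the inhibitor on the spike-in scale (limma, against 99.7% of all starts), from -7.85 at Pcdh8 and -7.48 at Pcdh15 to -6.56 at Pcdh17 and -6.80 at Pcdh7. Relative to the library mean, some of them had levels after the inhibitor as high as the alpha genes. The mean level was 11.4 after DMSO and 42.6 after the inhibitor at Pcdh7, 6.50 and 23.8 at Pcdh17, and 15.0 and 44.1 at Pcdh10. Pcdh8 had 18.2 and 28.9, while Pcdh15 had 4.57 and 0.888. The limma changes on the log2(level + 0.5) scale were 1.83 at Pcdh7, 1.79 at Pcdh17, 1.52 at Pcdh10 and -1.89 at Pcdh15, against 1.79 at Pcdha11, and 0 of the 9 passed the threshold. A high level after the inhibitor was thus not particular to the clustered alpha genes. Of 16 genes for factors that act at the clusters, among them the loop anchor CTCF, the cohesin subunits and the DNA methyltransferases, 15 had H3K36me3 above the genome mean over the body (median 4.19). All 12 with a measured start were lower in H3K27me3 on the spike-in scale, from -7.29 at Dnmt3b and -7.21 at Wiz to -2.05 at Smc3 and -2.23 at Smc1a.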

How the data were processed

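The authors deposited log2 values for 1 kb windows that overlap by 500 bp. Undoing the log2(1 + x) gave whole multiples of a step (100% of windows, tolerance 0.02), read as reads times a factor. The step scaled untreated libraries to their mapped reads and was taken as the authors' spike-in factor in the others, whose derivation is not given in the sources used here. The authors' peak lists carry a deposited score of unstated scale. The submitters' processing notes name Trim Galore 0.4.2, Bowtie2 2.2.6.2, SICER and mm10. No input library was used here.

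Non-overlapping windows on autosomes and X were used (2633787). The table of genes was RefSeq's for GRCm38.p6. It gives no strand for the members, so all were taken as forward, as the shared ends of the alpha and gamma genes show; for the beta genes this was an assumption. Starts with at least 10 reads over 4 libraries were fitted with limma 3.58.1 (R 4.3.3) on log2(value + 1) or log2(relative level + 0.5), with calls where the p adjusted by Benjamini-Hochberg was below 0.05. The fits were tested on simulated data. The members and lists were chosen with earlier results of these data known. Genes named were the 2 highest and 2 lowest per class in untreated H3K27me3, all C-type genes, 4 genes beside the clusters, the 3 largest rises and falls per inhibitor comparison, and 2 from each end of the other lists; Pcdha5, Pcdh10, Pcdhga6, Pcdhga8, Pcdhga12 and further genes named for a count were chosen after their values were seen. No sequence of the members is shown.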

Additional observations from a re-analysis of the deposited data

How the results depend on the processing

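Of 342 recomputed values, 271 counted as the same. A change counted so if it kept its sign, whatever its size. A count had to lie within a set ratio of the value reported, and an untreated level within the SD between libraries. The replicate block cannot alter a mean change over a cluster, so those values were the same by construction. The tally therefore does not show how close the changes stayed. Levels of untreated marks depended on the window and on the use of a mean or a median. The median H3K27me3 over the 57 starts was 2.80 within 1 kb, 7.09 over the first 2.5 kb of the gene and 4.97 in the DMSO libraries. The median H3K27me2 was 0.655 within 1 kb, the median H3K36me2 was 0.617 within 1 kb, 1.08 over the first 2.5 kb and 0.836 in the DMSO libraries, and the median H3K36me3 was 1.25 over the first 2.5 kb. Taking the median and not the mean over the windows of a cluster gave H3K27me3 of 0.908 in alpha, 1.13 in beta and 0.888 in gamma, H3K27me1 of 0.511 and 0.352 and H3K27me2 of 0.548 and 0.403 in alpha and beta, H3K36me2 of 0.195 and 0.123 in alpha and beta, and H3K36me3 of 0.213, 0.106 and 2.16 in alpha, beta and gamma. The DMSO libraries gave cluster means of 2.64, 2.74 and 2.54 for H3K27me3 in alpha, beta and gamma and 0.469 and 0.376 for H3K36me2 in alpha and beta. For the beta genes, whose strand was assumed, the whole gene gave a median H3K27me3 of 6.13 against 4.51 at the starts, an alternative chosen after seeing the data.

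For H3K27me3 on the library-mean scale, the 0 starts called became 1262 with a pseudocount of 0.1, 1621 with no filter, 4163 where reads in all 4 libraries were required, 6301 with limma-voom and 4290 with the median over gene starts as scale. The members called were 2, 3, 6, 14 (7 higher and 7 lower) and 25 (all lower) in the same order. Leaving out a library gave 0 to 11929 starts and 0 to 39 members, with the high counts where an inhibitor library was left out (11471 starts and 37 members without EZH2i replicate 1), a fit in which the lone library is assumed to vary like the DMSO pair. The change over the gamma cluster relative to the library mean turned from -0.28 to 1.07 with the median over windows and to 0.22 outside the starts. The alpha to beta ratio of starts kept a log2 change of 1.48 to 1.54 when any library was left out, 1.19 within 1 kb and 1.57 over the first 2.5 kb, and the alpha to gamma ratio kept 1.14 to 1.68, 0.77 and 1.56. These ratio alternatives were chosen after seeing the data.

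For H3K36me2 on the spike-in scale, the 29 starts called became 54 with a pseudocount of 0.1, 0 with no filter, 0 where reads in all 4 libraries were required, 74 within 1 kb and 54 over the first 2.5 kb, and 10 to 66 when a library was left out. The change over the alpha cluster was 0.17 and became -0.21 at the starts alone and -0.24 to 0.57 when a library was left out, with negative values without DMSO replicate 2 (-0.13) and EZH2i replicate 1. Over gamma it was 0.040 and became -0.0034 with the median over windows and -0.33 to 0.41 when a library was left out (-0.24 without DMSO replicate 2). The median change of the members was 0.091, and -0.19 to 0.38 when a library was left out. Relative to the library mean, the change over alpha was -0.036 and 0.079 outside the starts, that over beta was 0.15 and -0.0079 to 0.31 when a library was left out, and the median change of the members was -0.048, -0.15 to 0.016 when a library was left out and 0.026 with the median over gene starts as scale. The cause of these reversals was not tested.

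The replicate numbers of the labels were fitted as a block, although nothing says that they mark a shared culture. Deviations of same-numbered libraries had a correlation of 0.026 for H3K27me3 and 0.31 for H3K36me2, and 2 pairs cannot show a pairing. With the block, H3K27me3 calls on the library-mean scale were 1506 starts and 4 members, H3K36me2 calls on the spike-in scale 367 starts and 0 members, and H3K36me2 calls on the library-mean scale 2209 starts and 6 members (Pcdha6, Pcdha7, Pcdha10 and Pcdha12 lower, Pcdhb4 and Pcdhb17 higher). On the spike-in scale the block called 16006 starts lower in H3K27me3 in place of 15953, with 57 members under both. A planned look at members with few repeated 50-base words was not run, since no genome sequence was used here. Depth limits H3K27me3 after the inhibitor most, at 0 to 97 reads per member start.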
